A study of Mus musculus with 14 samples.

Results

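The Zscan4 family is a cluster of nearly identical mouse genes on chromosome 7. Its members were taken as the table entries named Zscan4a, Zscan4b, Zscan4c, Zscan4d and Zscan4f, which are 5 of 22492 gene symbols. Their transcripts were measured by RNA-seq in 14 libraries that formed 7 groups of 2. SCNT embryos, made by somatic cell nuclear transfer, received the nucleus of a cumulus cell, a somatic cell that surrounds the oocyte. Of them, 2-cell embryos came with overexpressed Kdm4d, an enzyme that takes methyl groups off histone H3 lysine 9, with an overexpressed mutant of it, or with neither, and 1-cell embryos with neither. IVF embryos, made by in vitro fertilisation, were taken at the 2-cell and the 1-cell stage, and the last group was the donor cumulus cells themselves.

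By the strain labels, every SCNT group combined a (C57BL/6J x CAST/EiJ) F1 donor cell with a B6D2F1 recipient oocyte, and every IVF group joined a C57BL/6J oocyte with CAST/EiJ sperm. Strain and kind of embryo therefore cannot be told apart. The protocol text names BDF1 females as the cumulus cell source, which differs from the strain label. What the mutation was, how overexpression was done and at which hour embryos were collected is not stated in the labels. Only for the donor cumulus cells is a time given, counted in hours after the hormone hCG and the same for both libraries. The part of this hormone in the donor levels was not tested. Each library pooled 25 Kdm4d, 25 mutant Kdm4d, 40 SCNT 2-cell, 36 SCNT 1-cell, 25 IVF 2-cell or 31 and 32 IVF 1-cell embryos, or about 1000 donor cells. Nothing says that the replicates were separate experiments, so p-values measure only the spread between these libraries.

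Zscan4 proteins carry a SCAN domain, which binds other SCAN proteins, and C2H2 zinc fingers, which bind DNA. In the mouse, their genes are transcribed in a burst at the 2-cell stage, when the embryo starts to use its own genome, and then again only in a small, changing fraction of embryonic stem cells. Zscan4d is known as the main form of the 2-cell embryo and Zscan4c as the main form of embryonic stem cells, where Zscan4 proteins are tied to telomere lengthening and genome stability.

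On genome build mm9 the members lay at chr7:11379590-11384414 (Zscan4a), chr7:11486089-11490399 (Zscan4b), chr7:11591094-11595896 (Zscan4c), chr7:11746992-11751497 (Zscan4d) and chr7:11983264-11987667 (Zscan4f), within a span of 608078 bases. Promoter windows of 4 members are shown as a description of sequence, and their part in the levels was not tested. They are taken from RefSeq on GRCm38.p6 and run 5′ to 3′ from 250 bases before to 50 bases after the annotated transcript start. Windows were at hand for 4 members: chr7:10905001-10905300 on the minus strand for Zscan4b, chr7:11005495-11005794 on the plus strand for Zscan4c, chr7:11166099-11166398 on the minus strand for Zscan4d and chr7:11397665-11397964 on the plus strand for Zscan4f. Capitals mark TATAAA, the core letters of a TATA box.
Zscan4b: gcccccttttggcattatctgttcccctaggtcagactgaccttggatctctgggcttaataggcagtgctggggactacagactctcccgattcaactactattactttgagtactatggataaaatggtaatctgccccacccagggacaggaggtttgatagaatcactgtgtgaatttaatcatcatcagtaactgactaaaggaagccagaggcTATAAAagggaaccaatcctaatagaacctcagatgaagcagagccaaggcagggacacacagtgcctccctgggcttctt
Zscan4c: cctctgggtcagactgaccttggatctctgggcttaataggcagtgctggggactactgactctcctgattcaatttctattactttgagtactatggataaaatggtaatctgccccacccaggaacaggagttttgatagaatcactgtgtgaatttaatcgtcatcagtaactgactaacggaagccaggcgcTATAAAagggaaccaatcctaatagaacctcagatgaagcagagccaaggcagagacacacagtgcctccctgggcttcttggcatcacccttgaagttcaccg
Zscan4d: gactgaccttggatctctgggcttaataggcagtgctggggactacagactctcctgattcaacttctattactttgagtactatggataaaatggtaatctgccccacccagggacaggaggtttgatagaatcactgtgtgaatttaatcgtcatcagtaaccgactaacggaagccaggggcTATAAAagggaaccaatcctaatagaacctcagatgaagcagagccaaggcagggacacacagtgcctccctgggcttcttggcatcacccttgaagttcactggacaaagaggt
Zscan4f: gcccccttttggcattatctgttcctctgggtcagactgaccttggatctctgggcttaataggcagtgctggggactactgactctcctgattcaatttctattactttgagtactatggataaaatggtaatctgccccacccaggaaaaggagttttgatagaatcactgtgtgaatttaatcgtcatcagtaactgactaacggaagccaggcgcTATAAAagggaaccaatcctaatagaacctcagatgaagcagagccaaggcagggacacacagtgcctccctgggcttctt

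Aligned with each other, these windows were identical at 95.3% to 99.3% of positions per pair. Zscan4c and Zscan4f differed at 2 of 277 aligned bases. Across the 4 windows, 253 of 266 columns, or 95.1%, held the same base. TATAAA began 31, 54, 65 and 31 bases before the annotated starts of Zscan4b, Zscan4c, Zscan4d and Zscan4f, which are themselves annotated at different points of the shared stretch. On either strand TATAAA was in 4 of 4 Zscan4 windows and in 13.6% of 32851 windows of the same length over all genes. CCAAT was in 4 of 4 and in 37.4% of all windows. TGCACAC, a motif reported for Zscan4 itself, was in 0 of 4 and in 4.40% of all windows. Each motif was searched on both strands, their letters do not overlap with each other, and a match describes these letters only. The 4 windows are near-identical copies, so their matches are not independent of each other.

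The transcripts themselves are as alike, which bears on how well the values of single members can be told apart. Coding sequences of Zscan4c and Zscan4f differed at 6 bases of 1518 (99.6% identical), those of Zscan4c and Zscan4d at 35 (97.7%) and those of Zscan4b and Zscan4d at 51 of 1515 aligned bases (96.6%). GENCODE lists Zscan4a as an unprocessed pseudogene, with no coding sequence. The stretch below, coding bases 636 to 695 on GENCODE M21 for GRCm38, is among the more variable ones. It lies at chr7:10901620-10901679 (Zscan4b, minus strand), chr7:11009111-11009170 (Zscan4c, plus), chr7:11162747-11162806 (Zscan4d, minus) and chr7:11401304-11401363 (Zscan4f, plus). Capitals mark the 7 positions at which the members differ.
Zscan4b: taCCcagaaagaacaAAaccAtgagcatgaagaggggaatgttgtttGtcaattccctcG
Zscan4c: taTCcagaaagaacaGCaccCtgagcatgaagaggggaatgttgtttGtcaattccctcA
Zscan4d: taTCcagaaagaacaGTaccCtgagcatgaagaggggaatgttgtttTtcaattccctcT
Zscan4f: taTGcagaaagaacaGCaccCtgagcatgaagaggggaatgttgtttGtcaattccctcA

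Reads were 50 bases long. Of all 50-base stretches of the Zscan4d transcript, 49.6% also occur in another Zscan4 transcript, against 63.6% for Zscan4a, 85.5% for Zscan4c, 87.9% for Zscan4b and 93.7% for Zscan4f. Zscan4f shares 81.7% of its stretches with Zscan4c, and Zscan4b 84.6% with Zscan4e, a copy in the same cluster. Stretches shared with genes outside the family made up 3.01% to 7.86%. The labels do not say how reads that map to several copies were counted. The value of each member is thus uncertain, most so for Zscan4b, Zscan4c and Zscan4f, and the sum over the members less so, although unlisted copies such as Zscan4-ps2, which holds 84.7% of the Zscan4f stretches, share reads too.

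**Figure D1:**
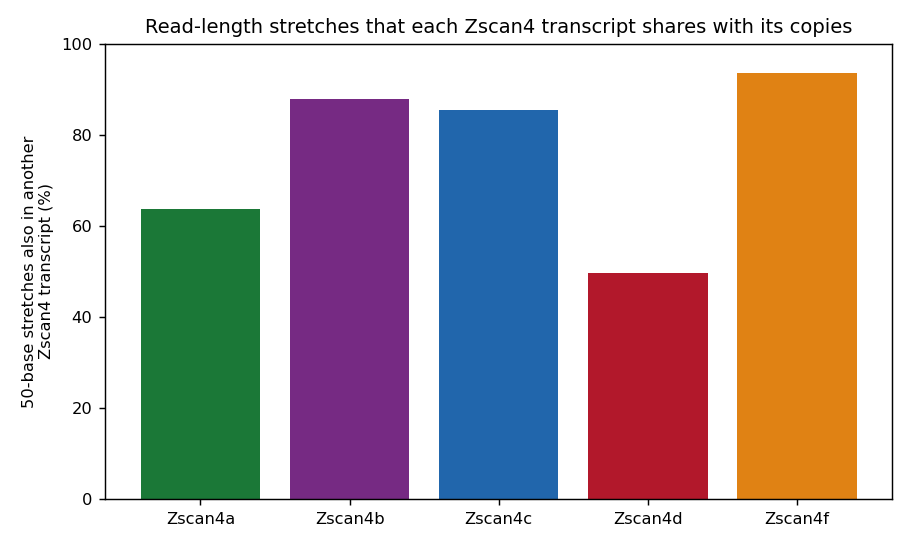
Share of 50-base stretches of each Zscan4 transcript (vertical axis, percent) that also occur in another Zscan4 transcript of the annotation, 1 bar per member. Zscan4d has the lowest share, 49.6%, and Zscan4f the highest, 93.7%.

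Levels are given as FPKM from the authors' table, that is, fragments scaled by transcript length and by the total of the library. In 2-cell embryos Zscan4d had 21.2 and 9.61 FPKM in the Kdm4d libraries, 0.556 and 0.269 in the mutant Kdm4d libraries, 0.228 and 0.898 in the SCNT libraries and 41.4 and 36.5 in the IVF libraries. In 1-cell embryos it had 2.60 and 2.59 FPKM after SCNT and 2.36 and 1.55 after IVF, and in donor cells it was listed at 0 and 0.0175. It was thus high in IVF 2-cell embryos, lower and unequal in the Kdm4d libraries, and under 1 FPKM in the other 2-cell libraries, where it lay below both 1-cell groups.

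Zscan4a was likewise highest in IVF and next in Kdm4d libraries among 2-cell embryos, at 5.27 and 3.88 FPKM in Kdm4d, 0.620 and 0.162 in mutant Kdm4d, 0.110 and 0.0617 in SCNT and 12.1 and 12.1 in IVF libraries. Unlike Zscan4d it was near 0 in 1-cell embryos, at 0.0372 and 0.0584 after SCNT and 0.143 and 0.00964 after IVF, and it was listed at 0 in both donor libraries. Both its mutant Kdm4d libraries lay above both SCNT 2-cell libraries, whereas those of Zscan4d overlapped. Zscan4c had 3.02 and 1.75 FPKM in Kdm4d, 0.0960 and 0.304 in mutant Kdm4d, 0.0982 and 0.0408 in SCNT and 6.54 and 7.73 in IVF 2-cell libraries. For these 3 members both Kdm4d libraries lay above every mutant Kdm4d and SCNT 2-cell library and below every IVF 2-cell library.

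Zscan4f and Zscan4b were the scarcest members. Zscan4f had 0.779 and 0.708 FPKM in Kdm4d, 0.0979 and 0.114 in mutant Kdm4d and 2.91 and 2.68 in IVF 2-cell libraries, and was listed at 0 in both SCNT 2-cell libraries. Zscan4b had 0.397 and 0.371 FPKM in Kdm4d, 0.0257 and 0 in mutant Kdm4d, 0.0292 and 0 in SCNT and 1.04 and 1.15 in IVF 2-cell libraries. Their groups fell in the same places, with no overlap between Kdm4d libraries and any other 2-cell group. In 1-cell and donor libraries neither was above 0.0244 FPKM. Zscan4e, the copy that is not a member, was under 1 FPKM in every library, at 0.0469 and 0.0287 in Kdm4d and 0.628 and 0.707 in IVF 2-cell embryos, and was listed at 0 in the mutant Kdm4d and SCNT 2-cell libraries.

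**Figure D2:**
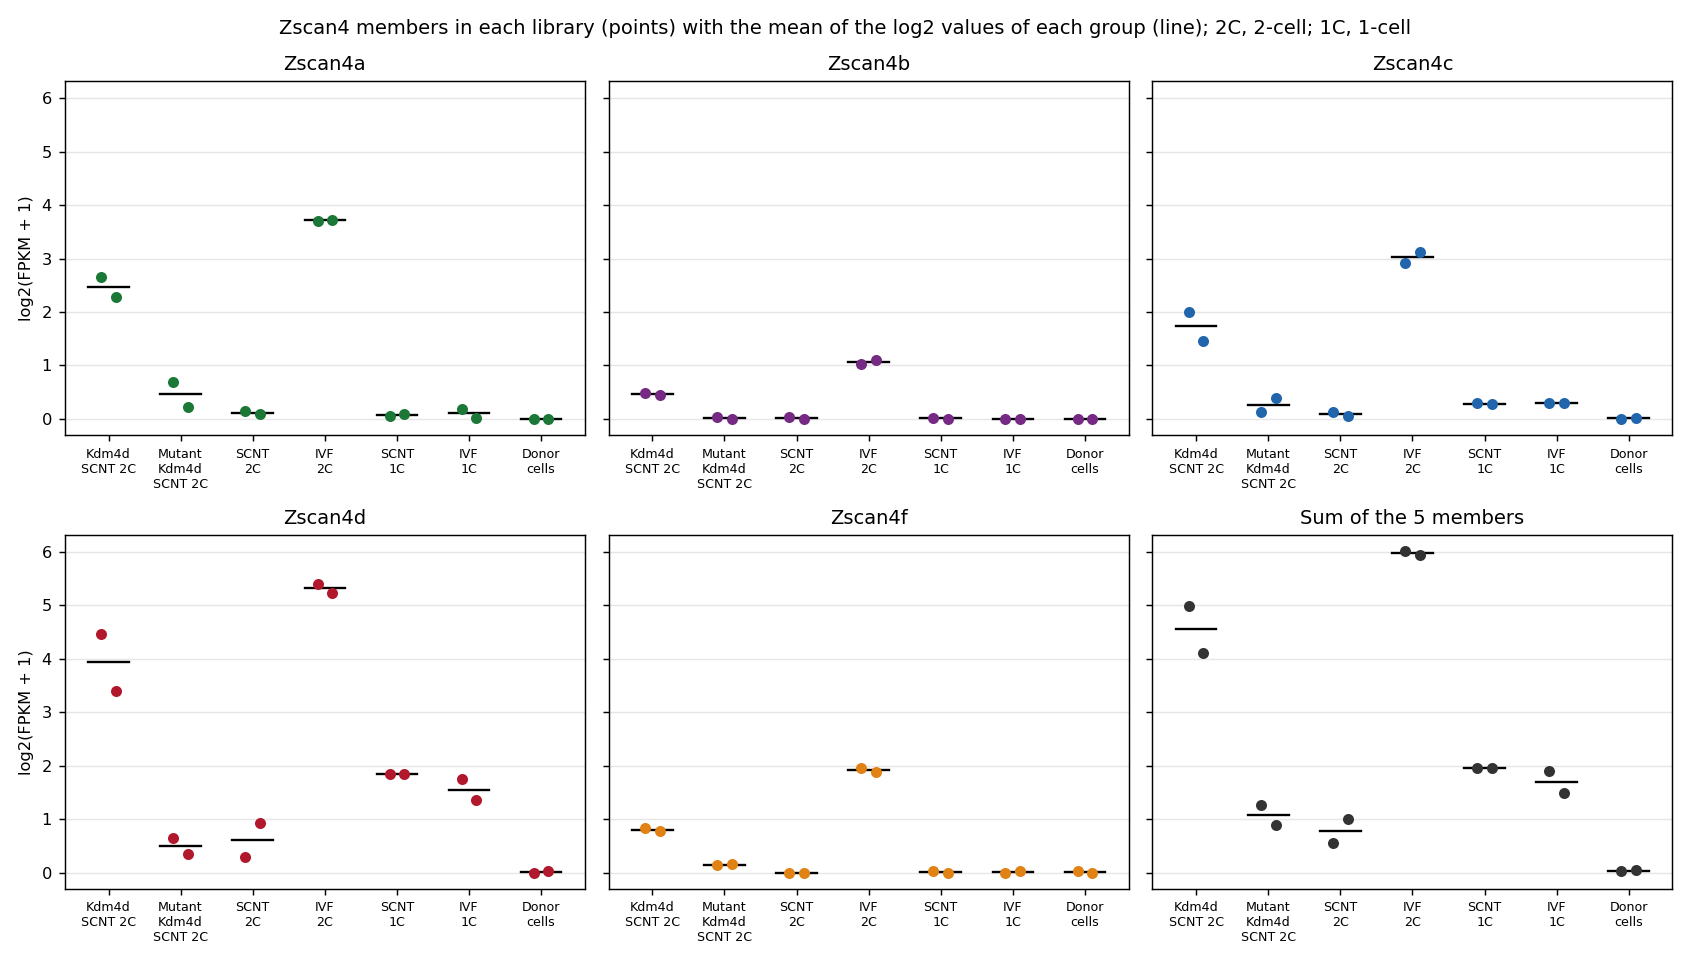
Level of each member in every library, by group (vertical axis, log2 of FPKM + 1), with points for single libraries and a line at the group mean. IVF 2-cell libraries are highest for every member, the Kdm4d libraries next, and the mutant Kdm4d and SCNT 2-cell libraries lie near the bottom.

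The summed level of the 5 members was 23.5 ± 10.2 FPKM in Kdm4d, 1.12 ± 0.387 in mutant Kdm4d, 0.733 ± 0.378 in SCNT and 62.1 ± 2.69 in IVF 2-cell embryos, 2.88 ± 0.0247 in SCNT and 2.27 ± 0.648 in IVF 1-cell embryos, and 0.0259 ± 0.00956 in donor cells (SD, n = 2 each). From the top the order was IVF 2-cell, Kdm4d, SCNT 1-cell, IVF 1-cell, mutant Kdm4d, SCNT 2-cell and donor cells. Within it, the neighbours SCNT 1-cell and IVF 1-cell differed by less than the IVF SD, and mutant Kdm4d and SCNT 2-cell libraries overlapped, at 1.40 and 0.849 against 0.465 and 1.00 FPKM. The sum has no test, since the members were listed with earlier results known. Embryos were pooled, so fewer embryos or cells that express the family and less of its RNA in each cannot be told apart in any comparison below.

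The make-up of the sum differed by stage. Zscan4d gave 69.2% and 58.9% of it in the Kdm4d and 64.7% and 60.6% in the IVF 2-cell libraries, but 89.9% and 90.5% in the SCNT and 86.3% and 85.5% in the IVF 1-cell libraries. Zscan4a gave 17.2% and 23.8% in the Kdm4d and 18.9% and 20.2% in the IVF 2-cell libraries, and at most 5.25% in a 1-cell library. Zscan4c gave 9.84% and 10.7% in the Kdm4d and 10.2% and 12.8% in the IVF 2-cell libraries. The shares of these 3 members thus overlapped between Kdm4d and IVF 2-cell libraries at unequal totals, as did those of Zscan4b. Those of Zscan4f did not, at 2.54% and 4.34% in the Kdm4d and 4.54% and 4.45% in the IVF 2-cell libraries. In mutant Kdm4d and SCNT 2-cell libraries the shares varied widely, with Zscan4d at 39.8% and 31.7% in the mutant and 48.9% and 89.8% in the SCNT libraries. The sums behind those shares came to an estimated 70.8 and 46.4 fragments in the mutant and 41.9 and 97.9 in the SCNT libraries, against 1723 and 750.1 in the Kdm4d libraries.

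**Figure D3:**
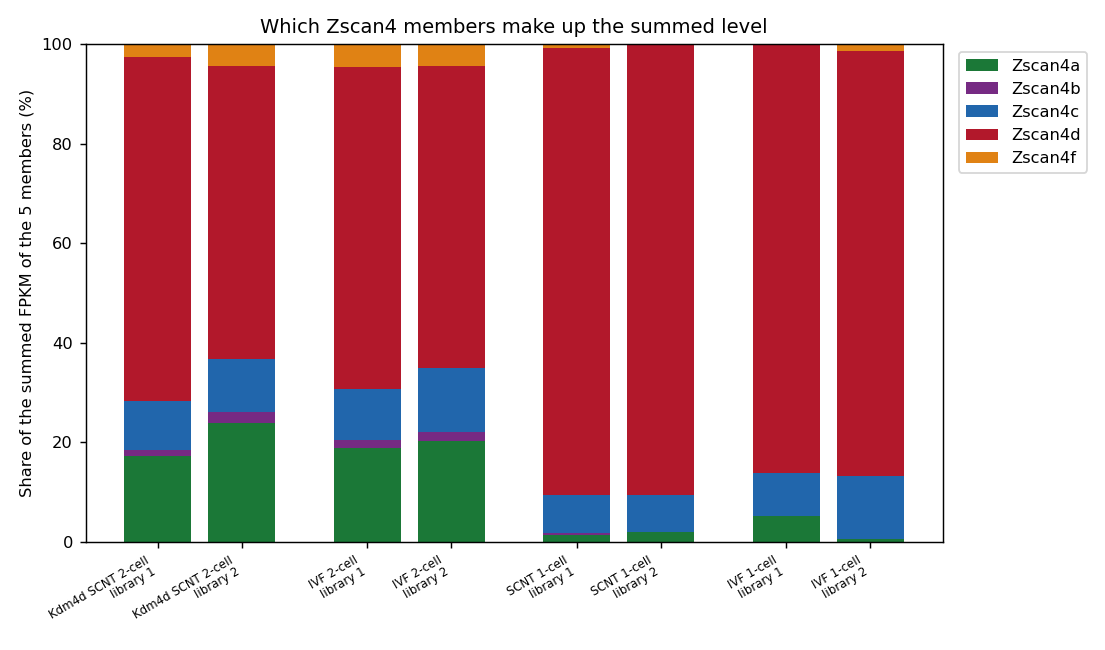
Share of the summed FPKM (percent) that each member gives in each Kdm4d 2-cell, IVF 2-cell, SCNT 1-cell and IVF 1-cell library. Mutant Kdm4d and SCNT 2-cell libraries are not drawn. Zscan4d takes 85.5% to 90.5% in 1-cell libraries and 58.9% to 69.2% in the Kdm4d and IVF 2-cell libraries.

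Tests were run with limma on log2(FPKM + 1) over 13453 genes that reached 1 FPKM in at least 2 libraries, with Benjamini-Hochberg adjustment, and a gene was called at an adjusted p below 0.05. This scale understates the change of genes near 0. Zscan4b and Zscan4f entered only through the IVF 2-cell libraries, in which they are high. Their calls in each comparison that uses IVF 2-cell embryos thus follow in part from the filter. That includes the IVF stage change and the difference of the stage changes. Zscan4a and Zscan4c entered only through the IVF and Kdm4d 2-cell libraries, in which they are high. Their calls in comparisons that use those groups may follow in part from the filter too. Only Zscan4d also reached 1 FPKM in 1-cell libraries. Counts of 5 are given as descriptions. The median of all genes was itself off 0, at 0.23 for SCNT, 0.18 for Kdm4d and 0.28 for mutant Kdm4d against IVF 2-cell embryos and 0.17 for the difference of the stage changes. In the other 5 comparisons it lay between −0.09 and 0.06. With quantile normalization it was 0.00 for SCNT, −0.01 for Kdm4d and 0.03 for mutant Kdm4d against IVF 2-cell embryos, and 0.04 for the difference of the stage changes. The median moved to −0.07 for the SCNT stage change, which had been at 0.06, and further from 0 for the IVF stage change, to −0.16 from −0.06. Relative to its median, Zscan4d stood at −4.93 for SCNT, −1.56 for Kdm4d and −5.11 for mutant Kdm4d against IVF 2-cell embryos.

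The first comparison asked whether the family was switched on between the 1-cell and 2-cell stage. After IVF, all 5 members were called higher at the 2-cell stage, against 30.4% of all genes. For Zscan4b and Zscan4f this follows in part from the filter, which they passed only through the IVF 2-cell libraries. Zscan4a and Zscan4c passed it only through the IVF and Kdm4d 2-cell libraries. Zscan4d was higher by 3.77 (SE 0.32, adjusted p = 5.81e-07) and Zscan4a by 3.61 (SE 0.18, adjusted p = 1.05e-08). Zscan4c was higher by 2.72, Zscan4f by 1.91 and Zscan4b by 1.07. No 1-cell library overlapped a 2-cell library for any of them.

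After SCNT, 0 of 5 members were called higher at the 2-cell stage, against 35.5% of all genes, and 1 was called lower, against 31.5%. That member was Zscan4d, lower by 1.24 in 2-cell than in 1-cell embryos (log2 difference −1.24, SE 0.32, adjusted p = 0.00427). Its call rests on the first SCNT 2-cell library, since without that library the difference was −0.92 (adjusted p = 0.0525). Differences of the other members ran from −0.19 for Zscan4c to 0.05 for Zscan4a, with 95% intervals of −0.58 to 0.21 and −0.35 to 0.45.

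The stage change after SCNT was lower than that after IVF for 5 of 5 members by the interaction term of the same fit, against 12.6% of all genes. The difference of the changes was −5.01 for Zscan4d (SE 0.45, adjusted p = 3.25e-05), the 5th lowest of 13453 genes. It was −3.56 for Zscan4a, −2.91 for Zscan4c, −1.92 for Zscan4f and −1.05 for Zscan4b. The adjusted p was at most 0.000239. The call held for each member in each alternative setting in which it was tested.

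The second comparison set SCNT against IVF 2-cell embryos, and 5 of 5 members were called lower, against 16.6% of all genes. Of the IVF level, SCNT embryos had 1.44% for Zscan4d, 0.709% for Zscan4a, 0.974% for Zscan4c and 1.33% for Zscan4b, while Zscan4f was listed at 0. The log2 differences ran from −4.71 for Zscan4d to −1.04 for Zscan4b, with adjusted p between 2.43e-07 and 7.02e-06. Zscan4d was the 8th and Zscan4a the 23rd lowest of all genes. At the 1-cell stage no such gap was present in the levels, with summed FPKM of 2.90 and 2.86 after SCNT and 2.73 and 1.81 after IVF.

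Before the third comparison, the Kdm4d transcript was read as a check of the labels. It had 8879 and 2255 FPKM in the Kdm4d libraries and 723.4 and 283.5 in the mutant Kdm4d libraries, against 0.543 and 0.327 in SCNT and 0.759 and 0.415 in IVF 2-cell libraries. Both overexpression labels thus match the transcript. The mutant transcript was lower than the wild-type one by 3.30 on the log2 scale (Kdm4d over mutant, SE 0.52, adjusted p = 0.00048), so dose and mutation differ together, and the part of dose in what follows was not tested. The Kdm4d libraries were unequal, and the first had the higher level of each of the 5 members. Of 27 other 2-cell-stage genes, 15 were higher in the first library and 12 in the second. Genes most like the family in pattern over the 14 libraries were divided. Gm428 (9.26 and 5.33 FPKM) and Gm11487 (27.7 and 18.9) were higher in the first library. Pramef6 (12.8 and 17.2), Dis3l (22.1 and 23.7) and Myo3a (2.63 and 2.92) were higher in the second.

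With Kdm4d, 5 of 5 members were called higher than in SCNT 2-cell embryos, against 21.0% of all genes. Zscan4d was higher by 3.33 (SE 0.32, adjusted p = 2.07e-05), the 21st highest difference of all genes, and Zscan4a by 2.35 (SE 0.18, adjusted p = 7.98e-06). Zscan4c was higher by 1.64 (adjusted p = 4.79e-05), Zscan4f by 0.80 (adjusted p = 0.000128) and Zscan4b by 0.45 (adjusted p = 0.00272). Each call held in each alternative in which the member was tested, with adjusted p up to 0.0314.

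With mutant Kdm4d, 0 of 5 members were called higher than in SCNT 2-cell embryos, against 11.3% of all genes, and 0 lower, against 6.41%. By limma 0 of 5 had an unadjusted p under 0.05, the lowest being 0.0905 for Zscan4a. Zscan4a differed by 0.34 (95% interval −0.06 to 0.74), Zscan4c by 0.16 (−0.23 to 0.55), Zscan4f by 0.15 (−0.08 to 0.37), Zscan4b by −0.00 (−0.21 to 0.20) and Zscan4d by −0.12 (−0.81 to 0.57). The interval of Zscan4d was the widest of the 5. All 5 members were under 1 FPKM in both groups, where this scale understates changes, so narrow intervals do not show equal levels. Over the alternatives the difference ran from 0.0982 to 1.24 for Zscan4a, 0.0358 to 0.751 for Zscan4c and 0.0761 to 1.04 for Zscan4f. It ran from −0.0232 to 0.0183 for Zscan4b and from −0.434 to 0.195 for Zscan4d. Without the second mutant library Zscan4a was called, at 0.58 (adjusted p = 0.0336).

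Set against each other, Kdm4d embryos were above mutant Kdm4d embryos for 5 of 5 members, against 21.4% of all genes. The difference was 3.45 for Zscan4d (SE 0.32, adjusted p = 2.27e-05), 2.01 for Zscan4a (adjusted p = 2.2e-05), 1.48 for Zscan4c, 0.66 for Zscan4f and 0.45 for Zscan4b, with adjusted p up to 0.00252. These p-values borrow the spread of all 7 groups. A fit to only the 4 libraries compared called 0 members, with adjusted p of 0.0615 to 0.0798, and 0 of all 13453 genes. With a separate weight per group, Zscan4b was lost (adjusted p = 0.0922) and the other 4 kept their calls.

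**Figure D4:**
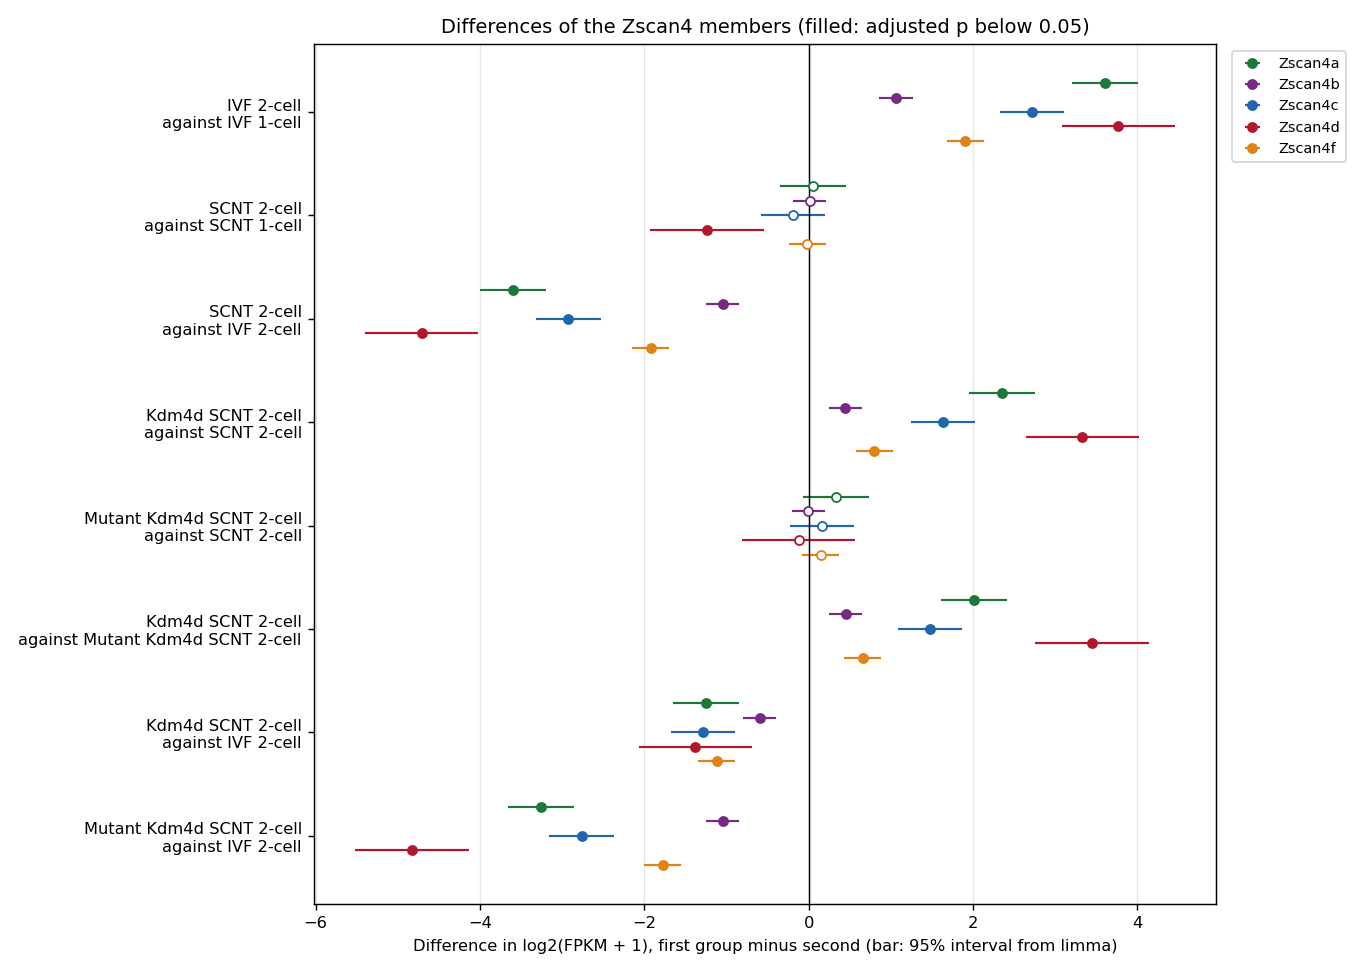
Difference in log2(FPKM + 1) for each member and comparison, first-named group minus second (horizontal axis), with 95% limma intervals. Filled points are called. The Kdm4d group lies right of 0 against SCNT and mutant Kdm4d embryos and left of 0 against IVF embryos, and the mutant group lies around 0 against SCNT embryos.

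The level with Kdm4d remained below that of IVF 2-cell embryos. All 5 members were called lower, against 3.70% of all genes. Kdm4d embryos had 39.6% of the IVF level for Zscan4d, 37.8% for Zscan4a, 35.1% for Zscan4b, 33.5% for Zscan4c and 26.6% for Zscan4f. The sum came to 49.4% and 26.3% of the IVF mean in the single Kdm4d libraries. The log2 difference was −1.38 for Zscan4d (SE 0.32, adjusted p = 0.0107), −1.25 for Zscan4a (0.00103), −1.29 for Zscan4c (0.000732), −1.12 for Zscan4f (5.05e-05) and −0.60 for Zscan4b (0.00138), adjusted p in brackets.

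These calls are less firm than those against SCNT embryos. Their p-values borrow the spread of all 7 groups. A fit to only these 4 libraries, which has fewer libraries to estimate the spread from, called 0 members (adjusted p up to 0.121). With a pseudocount of 0.1 Zscan4a and Zscan4d were no longer called. Zscan4d was also not called without the first IVF 2-cell library (−1.29, adjusted p = 0.0698), without the second (−1.47, adjusted p = 0.052) or without the second Kdm4d library (−0.84, adjusted p = 0.06). Mutant Kdm4d embryos lay below IVF 2-cell embryos for 5 of 5 members, against 18.1% of all genes, with sums at 1.81% of the IVF level. These comparisons share their IVF, SCNT and Kdm4d libraries with each other and are not independent.

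The family was then set beside a list of 38 other transcripts of the 2-cell stage, of which 30 were tested. They include the PRAME family genes Pramef6 and Gm13078, the homeobox genes Obox6 and Crxos1, and the Trim43 genes, and several belong to families of near-identical copies, so their values are uncertain too. After IVF 29 were higher and 0 lower at the 2-cell stage, against 30.4% and 37.2% of all genes (median difference 4.23, all genes −0.06). The list was chosen for this stage with earlier results known, so this count follows in part from the choice. Tdpoz3, with a mean of 1.69 FPKM in IVF 2-cell embryos, passed the filter only through them. Counts in other comparisons that use IVF 2-cell embryos are limited in the same way. After SCNT 19 of the 30 were higher and 1 lower, against 35.5% and 31.5% of all genes (median 1.39, against 0.06). Trim43a, for example, had 161.6 and 152.4 FPKM in SCNT 2-cell against 0.339 and 0.269 in SCNT 1-cell libraries. The list thus held 19 called rises of 30 after SCNT, and the members 0 of 5, which was not tested as a difference.

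SCNT against IVF 2-cell embryos had 0 of the 30 higher and 28 lower, against 30.3% and 16.6% of all genes (median −2.09, against 0.23). With Kdm4d 26 were higher and 0 lower than in SCNT embryos, against 21.0% and 18.5% of all genes (median 1.68, against −0.02). With mutant Kdm4d 0 were higher and 7 lower, against 11.3% and 6.41% of all genes (median −0.56, against 0.01). Kdm4d embryos against IVF embryos had 1 higher and 8 lower, against 16.6% and 3.70% of all genes (median −0.42, against 0.18). Pramef6, for example, had 12.8 and 17.2 FPKM in Kdm4d, 0.775 and 0.375 in mutant Kdm4d, 0.0881 and 0.675 in SCNT and 33.0 and 30.9 in IVF 2-cell libraries. Obox6 had 576.7 and 1080 FPKM in Kdm4d, 63.7 and 183.4 in mutant Kdm4d, 127.6 and 136.7 in SCNT and 696.3 and 714.5 in IVF libraries, so its Kdm4d libraries lay on both sides of the IVF ones.

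As a share of the IVF 2-cell level, the median of the 27 list genes with at least 5 FPKM there was 75.2% in Kdm4d (range 13.4% to 204%), 9.51% in mutant Kdm4d (0.465% to 125%) and 19.7% in SCNT embryos (0.701% to 77.9%). The members ran from 26.6% to 39.6% in Kdm4d, from 1.06% to 3.79% in mutant Kdm4d and from 0% to 1.44% in SCNT embryos. The cut at 5 FPKM, made on the IVF level on which these percentages depend, was not applied to the members. Zscan4b and Zscan4f averaged 1.09 and 2.79 FPKM in IVF 2-cell embryos, and Zscan4f gave the 26.6%, 3.79% and 0%. In Kdm4d embryos 4 of the 27 lay at or below the highest member, namely Gm8994 (13.4%), Gm2022 (31.5%), Gm4027 (33.0%) and Gm8300 (38.4%). In mutant Kdm4d embryos 7 did so, from Gm2022 (0.465%) to Gm12794 (3.78%). In SCNT embryos 4 did so, namely Gm4027 (0.701%), Gm13078 (0.967%), Pramef6 (1.19%) and Gm2022 (1.31%). These genes were picked out after their values were seen, and no test was made of the members against the list.

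**Figure D5:**
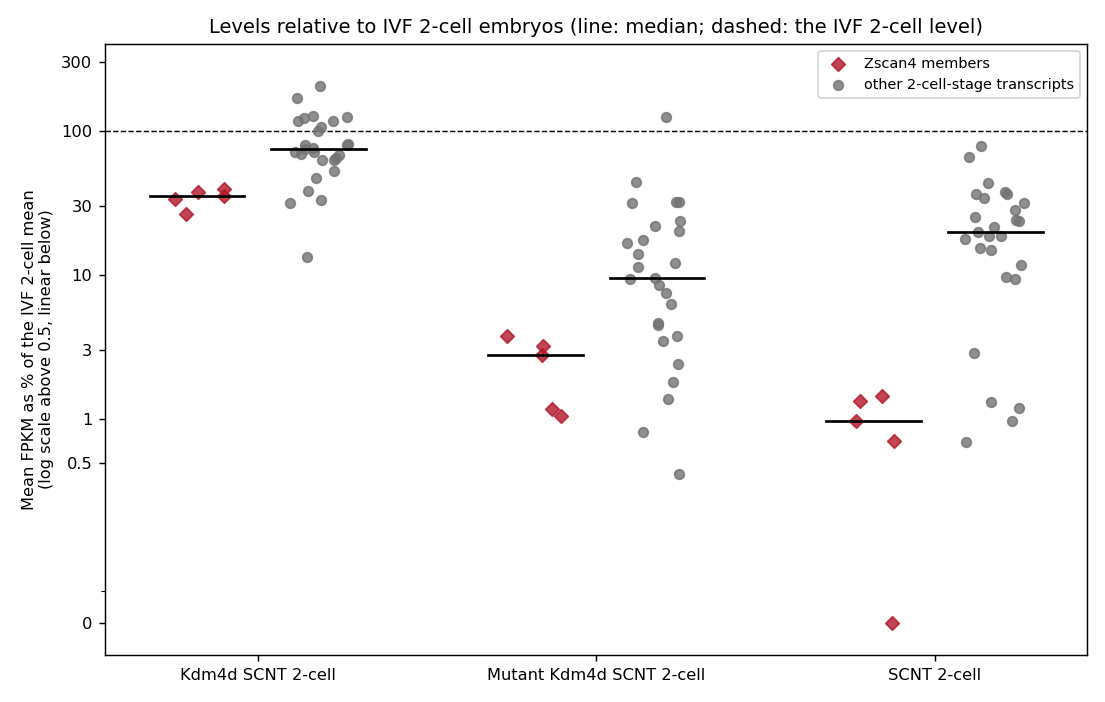
Level as percent of the IVF 2-cell mean (log axis) in Kdm4d, mutant Kdm4d and SCNT 2-cell embryos, for the 5 members and for the 27 other 2-cell-stage genes. The members lie between 26.6% and 39.6% in Kdm4d embryos, where the median of the other genes is 75.2%.

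Genes known to control the family were looked at next. Of 6 reported activators 5 were tested. In SCNT against IVF 2-cell embryos 4 were lower and 0 higher, against 16.6% of all genes lower and 30.3% higher (median −1.23, against 0.23 over all genes). With Kdm4d 4 were higher and 0 lower than in SCNT embryos, against 21.0% of all genes higher and 18.5% lower (median 1.15, against −0.02). Dppa2, whose product binds DNA and activates Dux and Zscan4 in mouse embryonic stem cells, had 35.0 and 78.7 FPKM in Kdm4d, 14.2 and 18.4 in mutant Kdm4d, 20.8 and 15.6 in SCNT and 50.5 and 45.7 in IVF libraries. Its partner Dppa4 had 93.7 and 156.3 FPKM in Kdm4d, 39.1 and 52.4 in mutant Kdm4d, 52.8 and 45.4 in SCNT and 110.1 and 97.9 in IVF libraries. For both, the Kdm4d libraries lay on either side of the IVF ones, and SCNT and mutant libraries lay below it.

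Tbx3, a T-box factor reported to raise Zscan4 in mouse embryonic stem cells, took another course. It had 0.789 and 0.543 FPKM in Kdm4d, 0.570 and 0.884 in mutant Kdm4d, 0.631 and 0.321 in SCNT and 11.9 and 10.7 in IVF libraries. It was lower with Kdm4d than after IVF by 2.88 on the log2 scale (difference −2.88, SE 0.17, adjusted p = 1.47e-06). Dux averaged under 1 FPKM in every group and was not tested.

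Of 19 reported repressors of Zscan4 or of the 2-cell state, 5 were higher and 6 lower in SCNT than in IVF 2-cell embryos, against 30.3% of all genes higher and 16.6% lower. With Kdm4d 5 were higher and 1 lower than in SCNT embryos, against 21.0% and 18.5% of all genes. The median difference was −0.20 for SCNT against IVF (0.23 over all genes) and 0.15 for Kdm4d against SCNT (−0.02 over all genes). Chaf1b, a subunit of the histone chaperone CAF-1, averaged 16.2 FPKM in SCNT and 5.72 in IVF 2-cell embryos (log2 difference 1.37, adjusted p = 0.000197). Setdb1, a methyltransferase of histone H3 lysine 9, averaged 3.27 in SCNT and 7.74 in IVF embryos (−1.04, adjusted p = 0.000601). Trim28, a corepressor that recruits Setdb1, averaged 41.9 in Kdm4d and 21.7 in SCNT embryos (0.92, adjusted p = 0.00423). The list thus moved in both directions.

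Genes of telomere upkeep, a process tied to Zscan4, came next. Of 14 tested telomere and telomerase genes 2 were higher and 6 lower in SCNT than in IVF 2-cell embryos (median −0.30, against 0.23 over all genes), against 30.3% of all genes higher and 16.6% lower. With Kdm4d 6 were higher and 0 lower than in SCNT embryos (median 0.60, against −0.02), against 21.0% and 18.5% of all genes. Terf1, a telomere-binding shelterin protein, had 102.0 and 151.6 FPKM in Kdm4d, 31.1 and 49.2 in mutant Kdm4d, 38.0 and 41.7 in SCNT and 115.4 and 106.4 in IVF libraries. Nhp2, a protein of the telomerase RNA particle, averaged 407.9 in Kdm4d, 84.2 in mutant Kdm4d, 101.9 in SCNT and 384.8 in IVF embryos. Other genes of the list took the other direction. Terf2, another shelterin protein, averaged 2.44 FPKM in Kdm4d, 3.82 in mutant Kdm4d, 2.97 in SCNT and 1.22 in IVF embryos, and was called higher in SCNT than in IVF embryos (log2 difference 0.84, adjusted p = 0.00166). So was Rtel1, a helicase of telomere replication, at 9.48 FPKM in SCNT and 6.08 in IVF embryos (0.56, adjusted p = 0.0477). Acd, a shelterin protein too, averaged 30.5 in Kdm4d, 44.3 in mutant Kdm4d, 17.4 in SCNT and 10.9 in IVF embryos, and was not called in SCNT against IVF embryos (adjusted p = 0.152).

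Of 7 tested meiotic recombination genes 2 were higher and 1 lower in SCNT than in IVF 2-cell embryos, which is near the shares of all genes, 30.3% and 16.6% (median −0.20, against 0.23). With Kdm4d 3 were higher and 2 lower than in SCNT embryos, against 21.0% and 18.5% of all genes (median 0.28, against −0.02). Sycp3, a protein of the synaptonemal complex of meiotic chromosomes, moved the other way, at 88.1 FPKM in Kdm4d, 278.6 in mutant Kdm4d, 230.3 in SCNT and 62.8 in IVF embryos. Hormad1, a meiotic chromosome axis protein, averaged 9.39 in Kdm4d, 6.48 in mutant Kdm4d, 4.36 in SCNT and 21.2 in IVF embryos.

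Of 20 other tested SCAN-domain zinc finger genes, 5 were higher and 8 lower in SCNT than in IVF 2-cell embryos, against 30.3% of all genes higher and 16.6% lower (median −0.22, against 0.23). With Kdm4d 6 were higher and 3 lower than in SCNT embryos, against 21.0% and 18.5% of all genes (median 0.12, against −0.02). Zscan5b had 117.4 and 191.1 FPKM in Kdm4d, 18.7 and 31.8 in mutant Kdm4d, 34.6 and 22.1 in SCNT and 224.4 and 192.1 in IVF libraries. Zscan21 averaged 30.1 FPKM in Kdm4d, 4.64 in mutant Kdm4d, 7.36 in SCNT and 22.9 in IVF embryos. The 5 genes called higher in SCNT than in IVF embryos were scarce, the most abundant of them in SCNT embryos being Zfp191, at 3.37 FPKM in SCNT and 1.85 in IVF embryos (log2 difference 0.61, adjusted p = 0.00842). It was picked out after its values were seen.

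Genes whose pattern was most like that of the family were sought by Pearson correlation with log2 of the summed level + 1 among 8950 genes. Over 14 libraries they were Gm428 (r = 0.988), Gm11487 (0.983), Pramef6 (0.977), Dis3l (0.973) and Myo3a (0.965). Gm428 had 9.26 and 5.33 FPKM in Kdm4d, 0.922 and 1.45 in mutant Kdm4d, 0.323 and 0.753 in SCNT and 13.5 and 13.3 in IVF 2-cell libraries. Over the 8 libraries of 2-cell embryos they were Olfr376 (0.996), Rbmx2 (0.995), Tmem92 (0.993), Taf5l (0.990) and Gm428 (0.990). The members correlated with each other at 0.904 to 0.995 over the 14 libraries. The libraries fall into groups, which by itself makes such values high, and by Spearman correlation only 1 of the 5 genes named remained among the top 5 ranks in either set.

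Over the whole series, sums of FPKM per library ran from 183005 to 345459, lowest in the SCNT 2-cell libraries, and replicates of a group correlated at 0.932 to 0.988 (Spearman, across genes). Depth estimated from the value of 1 fragment at low genes varied, with the shallowest library at 0.421 of the deepest. Of 15 oocyte and maternal transcripts, which every embryo library held, the sum was 3472 and 2371 FPKM in Kdm4d, 5855 and 2854 in mutant Kdm4d, 1191 and 1379 in SCNT and 1988 and 2039 in IVF 2-cell libraries. Of 16 cumulus and granulosa cell markers it was 119.3 and 172.8 in Kdm4d, 94.2 and 66.9 in mutant Kdm4d, 61.0 and 57.7 in SCNT and 85.5 and 88.3 in IVF 2-cell libraries, against 26871 and 20485 in donor cells, in which 15 of the 16 reached 1 FPKM. The part of either sum in the Zscan4 results was not tested. Divided by the library sum, the Zscan4 sum stood at 30.4% of the IVF 2-cell level in Kdm4d, 1.66% in mutant Kdm4d and 1.53% in SCNT embryos.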

How the data were processed

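RNA-seq was done on pooled mouse embryos and donor cells. Per the labels' protocols, lysed samples went into SMARTer low-input cDNA synthesis, sonication and NEBNext libraries, read as 50-base single ends. Per the submitters' processing notes, Novoalign (version not given) and Cufflinks 2.0.2 were used on mm9. The values deposited by the authors are FPKM, in 1 table of 23697 rows. No source names the strandedness, the annotation or the treatment of multi-mapping reads. Starts in the table count from 0, so 1 was added.

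Short RNAs (796 rows) were dropped and rows that shared a symbol (640) were summed. The test kept genes that reached 1 FPKM in 2 or more libraries. log2(FPKM + 1), without further scaling, was fitted with limma 3.58.1 in R 4.3.3 (all 7 group means, intensity trend, 7 residual and 4.72 prior degrees of freedom), with Benjamini-Hochberg adjustment within each comparison. The script was tested on simulated data. The members, gene lists and tests were chosen with earlier results of these data known. Of each list, genes named were up to 2 called members with the largest rise and 2 with the largest fall per comparison at 5 FPKM or more, of which a selection is given, except where said otherwise. Alternatives were a pseudocount of 0.1, no filter, a filter at 5 FPKM, quantile normalization, only the groups compared, group weights, a replicate block, the largest row per symbol, division by library sums, and leaving out each library.

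Fragments were estimated by dividing FPKM by the value of 1 fragment, read from 1195 genes. Of low values, 76.3% to 90.6% per library lay within 0.15 of a whole number, so fragments are approximate and no count test was run. Promoters came from RefSeq tables and transcripts from GENCODE M21, aligned with MAFFT 7.526. Protein sequences and a promoter of Zscan4a were not used here.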

Additional observations from a re-analysis of the deposited data

Results flagged for a closer look

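The change between the 1-cell and 2-cell stage differed between SCNT and IVF embryos for each member, by the interaction term of the limma fit. The difference of the log2 changes, SCNT minus IVF, was −3.56 for Zscan4a, −1.05 for Zscan4b, −2.91 for Zscan4c, −5.01 for Zscan4d and −1.92 for Zscan4f. For each member every SCNT 2-cell library was below every IVF 2-cell library. Zscan4b and Zscan4f entered the test only through the IVF 2-cell libraries, and Zscan4a and Zscan4c only through the IVF and Kdm4d 2-cell libraries. The kind of embryo goes with the strain, so these cannot be told apart.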

How the results depend on the processing

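Of 972 values of single members under the alternatives, 946 kept direction and call, 17 lost the call, 1 gained it and 8 changed sign. Of 778 alternatives for called differences 761 kept the call and 0 changed sign. With a filter at 5 FPKM, 3 members were tested and called in each of the 7 comparisons that had 5, since Zscan4b and Zscan4f were not tested. A fit to only the groups compared called 0 members between Kdm4d and mutant Kdm4d and 0 between Kdm4d and IVF 2-cell embryos, and a pseudocount of 0.1 left 3 in the second. Leaving out 1 library gave 0 to 1 members called for the SCNT stage change and 0 to 1 for mutant Kdm4d against SCNT embryos. The group's other library is then assumed to vary like the rest. The changes of sign were of values not called: after quantile normalization Zscan4a −0.0450 and Zscan4b −0.00176 for the SCNT stage change and Zscan4b 0.0112 for mutant Kdm4d against SCNT. Without 1 library the stage change of Zscan4b after SCNT ran from −0.00882 to 0.0327, and for mutant Kdm4d against SCNT Zscan4b ran from −0.0232 to 0.0183 and Zscan4d from −0.434 to 0.195. Differences between the first and second library of a group correlated above 0.1 in 1 of 21 pairs of groups. That cannot show whether same-numbered libraries were prepared together. A replicate block changed no call of a member (Zscan4d 3.33, adjusted p = 4.2e-05, for Kdm4d against SCNT).

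Lists moved more. For mutant Kdm4d against SCNT, 7 of the 2-cell-stage list were lower, against 13 after quantile normalization, 4 with group weights, 0 in a fit to these groups and 3 to 19 without 1 library. For Kdm4d against IVF 8 were lower, against 4 with a pseudocount of 0.1, 5 with the filter at 5 FPKM, 1 in a fit to these groups and 4 to 9 without 1 library. Activators higher with Kdm4d than in SCNT were 1 in a fit to these groups. Repressors lower in SCNT than in IVF were 3 after quantile normalization, and those higher with Kdm4d than in SCNT were 2, 2 in a fit to these groups and 3 to 6 without 1 library. Recombination genes lower in SCNT than in IVF were 2 after quantile normalization, 2 with group weights and 1 to 2 without 1 library, and those higher with Kdm4d than in SCNT were 1, 0 in a fit to these groups and 1 to 3. Other SCAN genes lower in SCNT than in IVF were 5 to 8 without 1 library. By Spearman correlation 1 of 5 most-like genes was kept in each set. The causes were not tested. Few fragments limit the mutant and SCNT values: Zscan4d had an estimated 28.7 and 15.1 in mutant Kdm4d and 20.8 and 87.8 in SCNT libraries.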
